A study of Bos taurus with 7 samples.

Results

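The ephrin, semaphorin, SLIT and netrin families with their receptors are known as axon guidance genes, and 68 of them were measured in whole luteal tissue of the cow among 19539 entries of the authors' deposited table. The members were chosen by symbol alone: EPHA and EPHB receptors, EFNA and EFNB ephrins, semaphorins, plexins, SLIT1 to SLIT3, ROBO1 to ROBO4, netrins and UNC5A to UNC5D. Tissue of day 6 (4 libraries) was compared with tissue of day 4 (3 libraries) of the estrous cycle. The cows of both days were otherwise untreated, and all had their cycles synchronised with a CIDR device kept in place for 7 days, 25 mg of PGF2A (Lutalyse) and 86 mcg of GnRH (Fertagyl), with an ultrasound check of ovulation on day 2. Glands of day 4 were taken after slaughter and those from after day 6 by colpotomy, through the vaginal wall. The labels do not give the route for day 6 itself, so route and day may not be separable. They also do not say that each library came from another cow, so p-values measure the spread between these samples, which may be technical.

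Axon guidance genes encode short-range and diffusible cues and their receptors, which steer growing nerve fibres by attraction or repulsion. The same proteins act outside the nervous system. Ephrin-B ligands and EPHB receptors sort arterial from venous endothelium, semaphorins signal through plexins and neuropilins to retract the cytoskeleton of endothelial and immune cells, and SLIT proteins act on ROBO receptors in vessels and in the ovary. The corpus luteum grows a dense capillary bed within days of ovulation. Ephrins and membrane semaphorins can also signal backwards into the cell that carries them. They are counted as ligands here by convention.

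The table holds 1 mean level per day and 1 Wald test per gene, without values of single libraries. How many libraries show a direction, whether the days overlap, and the sequencing depth behind a value are therefore unknown. Levels are mean TPM, a share of transcripts corrected for length, so levels may be compared between genes. Fold changes are log2, day 6 over day 4, with the authors' standard error after ±, and were obtained as the deposited score times that error. A gene is said to be called, or to rise or fall, where its adjusted p-value in the authors' deposited table is under 0.05. Markers of steroidogenic luteal cells stood at high levels on both days, summing to 26658 TPM on day 6 and 14090.1 TPM on day 4 over 8 genes, led by OXT, HSD3B1 and CYP11A1. In whole tissue, fewer cells of a type and less RNA per cell cannot be told apart.

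Of the 67 members with a test, 27 passed the threshold (40.3%), 9 of them with a higher level on day 6 and 18 with a lower one. The share of calls among all 19485 entries with a test was 14.5% in the authors' deposited table, made up of 4.12% higher and 10.4% lower. Members averaging at least 1 TPM can be read against entries of like level: 23 of 52 such members were called, 7 higher and 16 lower, beside 17% of 13988 such entries, 5.48% higher and 11.6% lower. The median log2 fold change of the members was -0.30, beside -0.05 over all tested entries, and at a mean of at least 1 TPM it was -0.10, beside 0.03 over such entries. The counts are a description of these families, and no test across the list was made. They rest on the normal distribution of the authors' Wald test: with a t distribution at 5 degrees of freedom 0 members were called, as were 0 of all entries, and against a null fold of 1.5 there were 0 higher and 7 lower.

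The calls lay mostly among ligands. Of 36 ligand genes with a test 20 were called (55.6%), 5 higher and 15 lower, and semaphorins gave 13 of these 20. Of 31 receptor genes 7 were called (22.6%), 4 higher and 3 lower, beside 14.5% of all entries. The median log2 fold change was -0.78 for ligands and 0.01 for receptors. The receptors had the smaller median standard error (0.34, against 0.45 for ligands). Whether ligands and receptors differ was not tested. The authors' fold changes lie on a scale of their own, since they exceed the log2 ratio of mean TPM by 0.21 in the median entry, and mitochondrially encoded genes took 29.2% of TPM on day 6 and 10.3% on day 4. On the TPM scale 6 members were higher and 23 lower, and on the TPM scale without mitochondrially encoded genes 13 were higher and 15 lower. Over all 19485 tested entries the counts moved as well, from 803 higher and 2020 lower as deposited. They were 299 higher and 3829 lower on the TPM scale, and 1848 higher and 1595 lower without mitochondrially encoded genes. Among receptors these counts were 1 higher and 4 lower on the TPM scale, and 7 higher and 3 lower without mitochondrially encoded genes. Among ligands they were 5 higher and 19 lower, and 6 higher and 12 lower. No called member changed direction on either scale. The calls of PLXNA2, PLXND1 and ROBO2 were lost on the TPM scale, and those of SEMA4D, SEMA4F and SLIT2 on the TPM scale without mitochondrially encoded genes. Calls were gained as well. On the TPM scale 5 members became lower: EFNA1, EFNA2, EPHB4, NTN1 and SEMA4G. Without mitochondrially encoded genes 4 became higher: EPHA1, PLXNA1, PLXNB2 and SEMA5B.

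**Figure D1:**
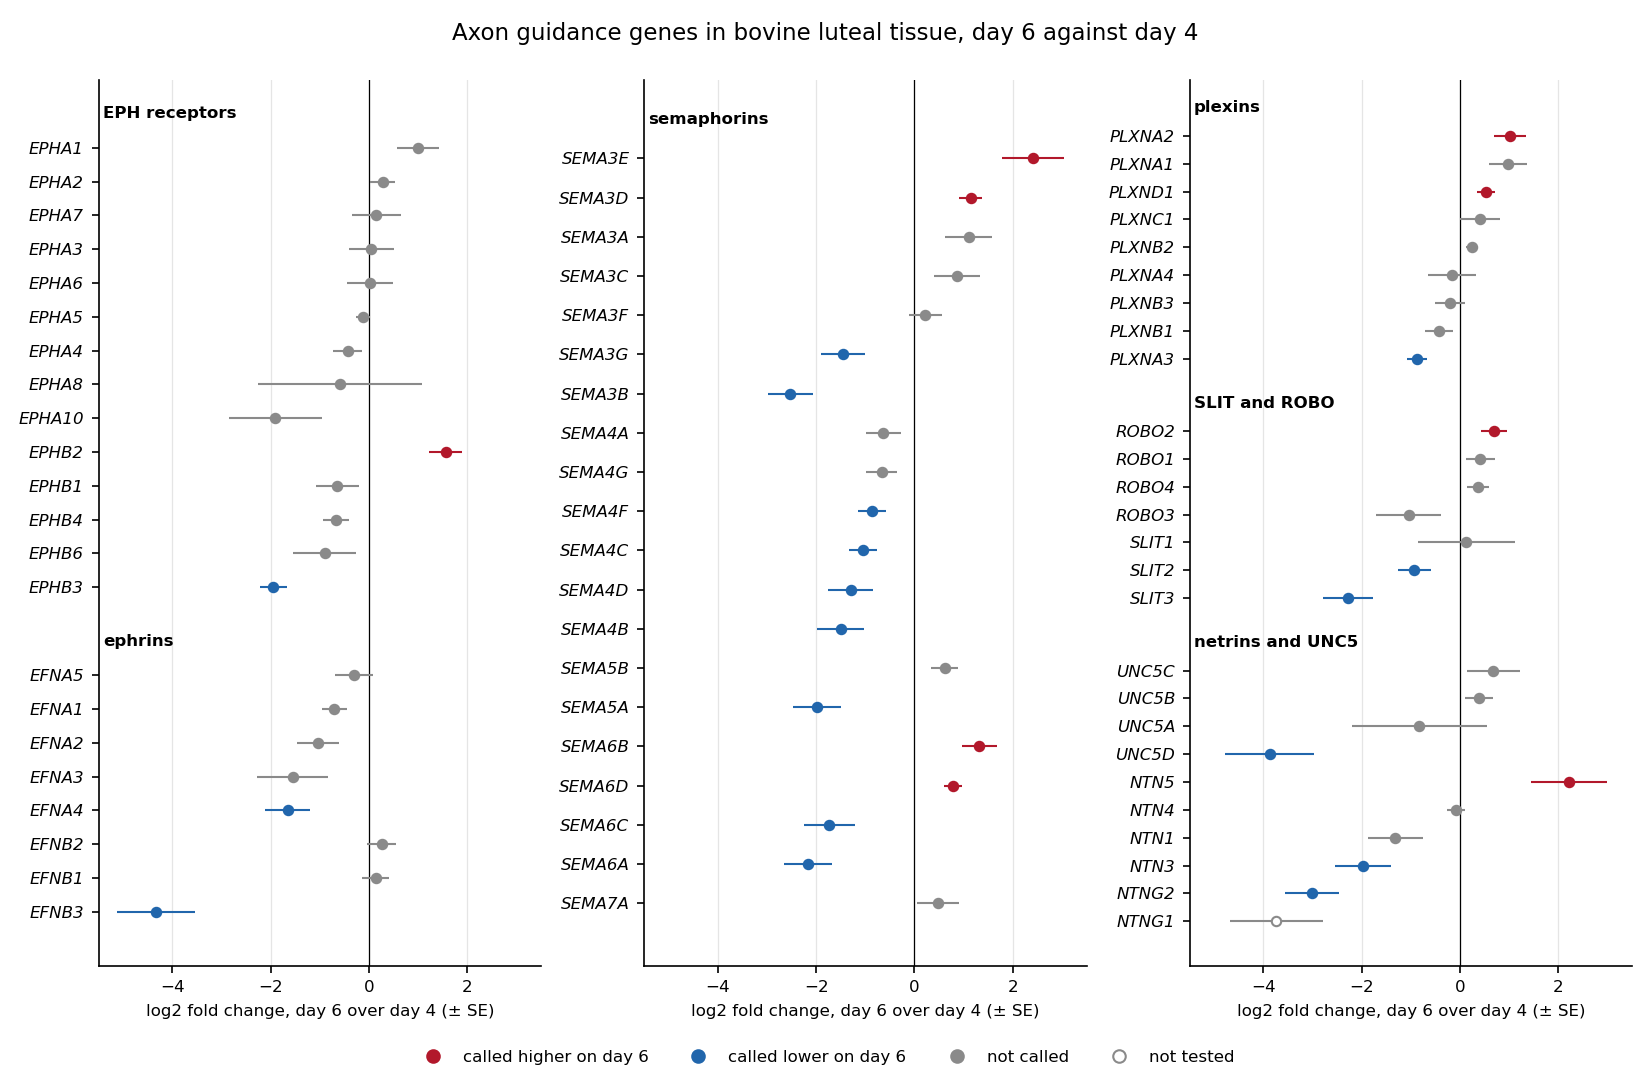
Log2 fold change, day 6 over day 4, of each axon guidance gene (points) with the authors' standard error (bars), grouped by family. Class 4 semaphorins and ephrin-A genes all lie left of 0, while class 3 and class 6 semaphorins lie on both sides, from -2.52 for SEMA3B to 2.41 for SEMA3E.

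**Figure D2:**
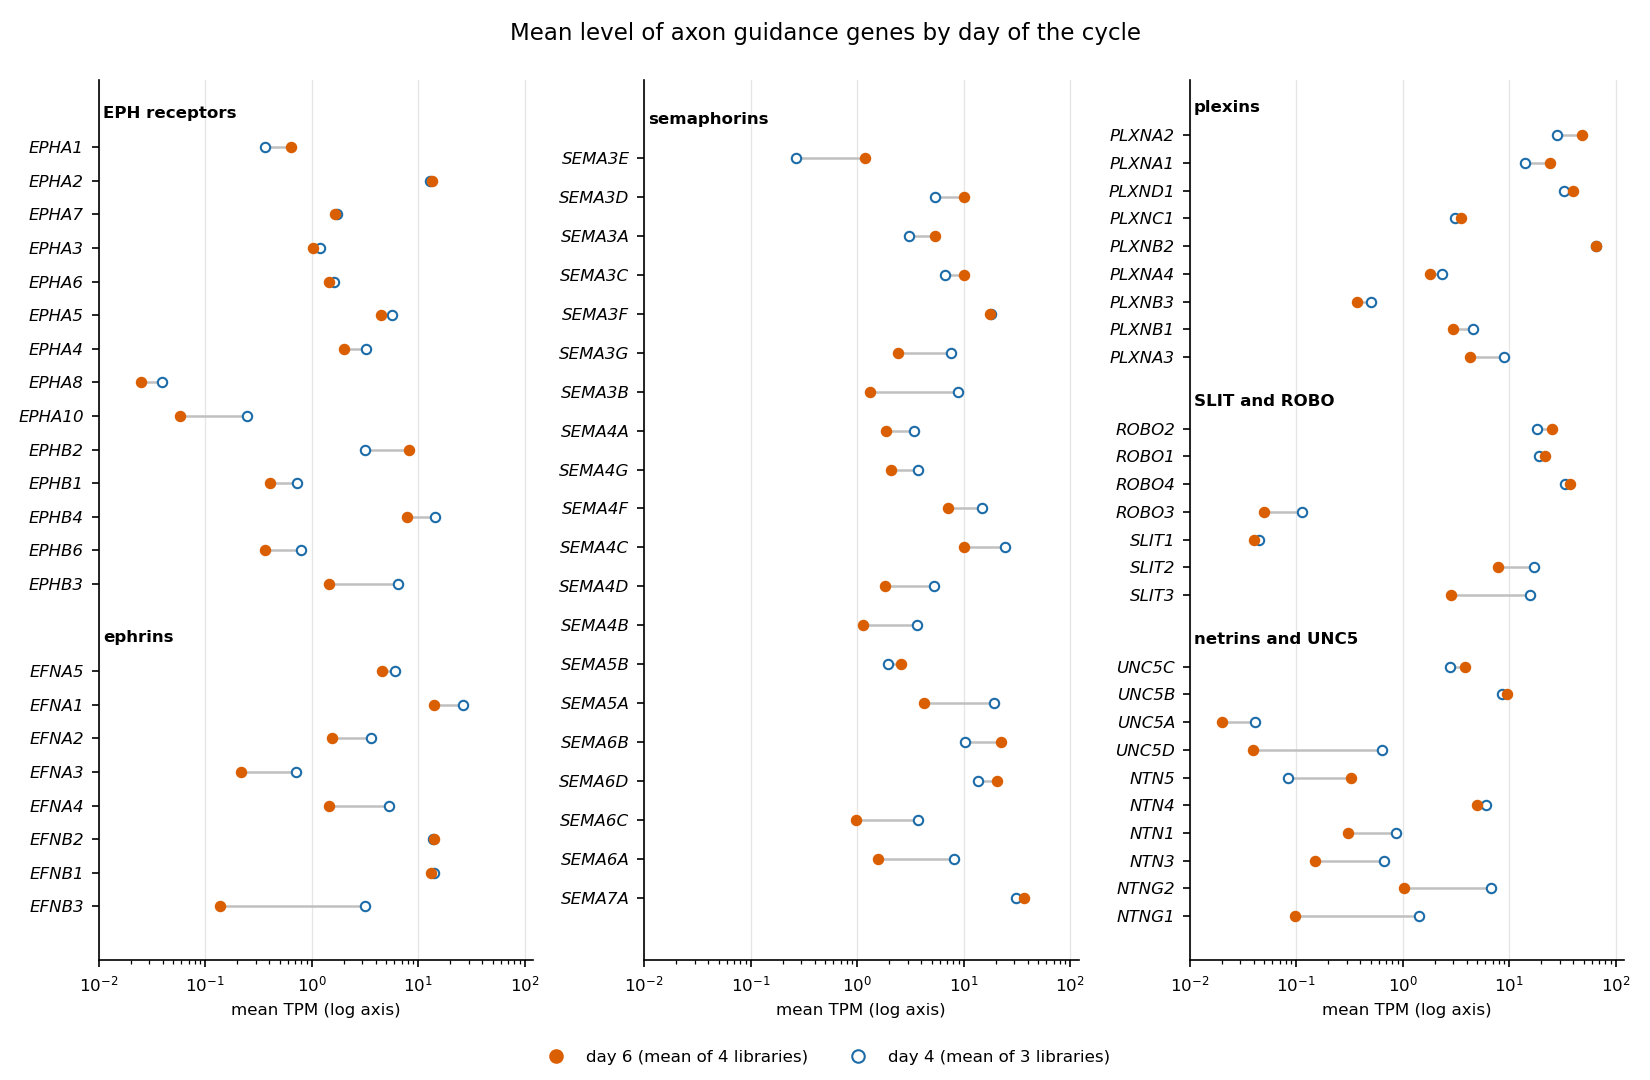
Mean TPM of each gene on day 6 (filled) and day 4 (open) on a log axis, from the authors' deposited table, with a line joining both days. PLXNB2 was the most abundant member, and EFNB3, UNC5D and NTNG1 show the longest lines toward a low level on day 6.

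Ephrins are the membrane-bound ligands of EPH receptor kinases, held by a lipid anchor (EFNA) or a transmembrane segment (EFNB). EFNB3, a transmembrane ephrin, fell furthest of all members in the authors' deposited table and stood at 0.137 TPM on day 6 and 3.15 TPM on day 4 (log2 -4.33 ± 0.80, adjusted p = 5.31e-06). EFNA4, a lipid-anchored ephrin, fell too in the authors' deposited table, with 1.47 TPM on day 6 and 5.3 TPM on day 4 (log2 -1.65 ± 0.46, adjusted p = 0.00531). The remaining 6 ephrins were not called and had log2 fold changes from -1.55 to 0.26. EFNA1, an ephrin induced by inflammatory signals in endothelium and the most abundant ephrin on both days, just missed the threshold in the authors' deposited table, with 14.1 TPM on day 6 and 26.4 TPM on day 4 (log2 -0.70 ± 0.26, adjusted p = 0.0508). It was called lower on the TPM scale (adjusted p = 0.00463), and not without mitochondrially encoded genes (adjusted p = 0.106). In the authors' deposited table EFNB2, a marker of arterial endothelium, had 14 TPM on day 6 and 13.9 TPM on day 4 (log2 0.26 ± 0.29, adjusted p = 0.594), and its 95% Wald interval ran from -0.30 to 0.82. All 5 EFNA genes had negative log2 fold changes (from -1.65 to -0.30), and these stayed negative on each of the scales tried. Their summed level was 21.9 TPM on day 6 and 42.1 TPM on day 4, a lower sum on day 6 that held without mitochondrially encoded genes (30.9 TPM on day 6 and 46.9 TPM on day 4). The 3 EFNB genes summed to 27.4 TPM on day 6 and 31.2 TPM on day 4, an order that turned round without mitochondrially encoded genes (38.7 TPM on day 6 and 34.8 TPM on day 4). EFNB3 made up 0.498% of the EFNB sum on day 6 and 10.1% on day 4 in the authors' deposited means.

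EPH receptors are receptor tyrosine kinases, with type A preferring EFNA and type B preferring EFNB ligands. Of 14 EPH receptors 2 were called, a share of 14.3%, near the 14.5% of all entries. Both called receptors were of type B and moved in opposite directions. EPHB2 rose in the authors' deposited table, with 8.27 TPM on day 6 and 3.18 TPM on day 4 (log2 1.56 ± 0.34, adjusted p = 0.000187). EPHB3 fell in the authors' deposited table, with 1.46 TPM on day 6 and 6.43 TPM on day 4 (log2 -1.94 ± 0.27, adjusted p = 9.51e-10). The level of EPHB2 was 5.67 times that of EPHB3 on day 6 and 0.494 times on day 4, so their order was turned round. EPHB4, the receptor of venous endothelium that binds EFNB2, was not called in the authors' deposited table, with 7.87 TPM on day 6 and 14.4 TPM on day 4 (log2 -0.66 ± 0.27, adjusted p = 0.0711). It was called lower on the TPM scale (adjusted p = 0.00773), and not without mitochondrially encoded genes (adjusted p = 0.138). In the authors' deposited table EPHA2, the most abundant EPHA receptor, had 13.4 TPM on day 6 and 12.8 TPM on day 4 (log2 0.28 ± 0.26, adjusted p = 0.496; interval -0.22 to 0.78). EPHA1 was called higher without mitochondrially encoded genes (adjusted p = 0.0487), and not on the TPM scale (adjusted p = 0.195). None of the 9 EPHA receptors was called as deposited. Their log2 fold changes ran from -1.91 to 0.99, and 3 of them averaged under 1 TPM. The 3 EPHB receptors not called ran from -0.90 to -0.64. In the authors' deposited table the 12 EPH receptors that were not called had adjusted p-values from 0.0711 to 0.986.

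Semaphorins share an extracellular sema domain and are sorted into classes by structure: class 3 is secreted, classes 4 to 6 cross the membrane and class 7 is lipid-anchored. They held the most calls of any family: of 20 genes 13 were called, 4 higher and 9 lower, beside 14.5% of all entries. Calls went both ways within class 3 and within class 6, and one way within class 4. The 7 semaphorins not called had log2 fold changes from -0.66 to 1.10, with adjusted p-values from 0.105 to 0.715 in the authors' deposited table.

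Class 3 semaphorins bind neuropilins that pair with plexins. SEMA3D rose in the authors' deposited table, with 10.1 TPM on day 6 and 5.34 TPM on day 4 (log2 1.15 ± 0.23, adjusted p = 5.11e-05). SEMA3E, which binds PLXND1 without a neuropilin and restrains vessel growth in the mouse, rose at a low level in the authors' deposited table, with 1.18 TPM on day 6 and 0.267 TPM on day 4 (log2 2.41 ± 0.63, adjusted p = 0.0027). SEMA3B, studied as a tumour suppressor, was the second most abundant member of its class on day 4 and fell in the authors' deposited table, with 1.32 TPM on day 6 and 8.94 TPM on day 4 (log2 -2.52 ± 0.46, adjusted p = 4.4e-06). SEMA3G, a semaphorin of endothelial cells, also fell in the authors' deposited table, with 2.43 TPM on day 6 and 7.67 TPM on day 4 (log2 -1.45 ± 0.44, adjusted p = 0.0134). SEMA3F, the most abundant of the class, was not called in the authors' deposited table, with 17.9 TPM on day 6 and 18 TPM on day 4 (log2 0.22 ± 0.34, adjusted p = 0.715; interval -0.45 to 0.89). The summed level of the class was 48.4 TPM on day 6 and 49.9 TPM on day 4, or 68.3 TPM on day 6 and 55.6 TPM on day 4 without mitochondrially encoded genes, which turned the order round. Its makeup differed between days: SEMA3D took 20.9% of the sum on day 6 and 10.7% on day 4, and SEMA3B 2.74% on day 6 and 17.9% on day 4. Without mitochondrially encoded genes the class sums were 68.3 TPM on day 6 and 55.6 TPM on day 4.

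All 6 class 4 semaphorins had negative fold changes on each scale tried, and 4 of them were called lower. SEMA4C, a ligand of PLXNB2 and the most abundant of the class, fell in the authors' deposited table, with 10.1 TPM on day 6 and 24.4 TPM on day 4 (log2 -1.05 ± 0.29, adjusted p = 0.00508). SEMA4F fell there as well, with 7.13 TPM on day 6 and 15 TPM on day 4 (log2 -0.86 ± 0.28, adjusted p = 0.0228, from the authors' deposited table). SEMA4D, also known as CD100, a ligand of PLXNB1 carried by T cells, fell in the authors' deposited table, with 1.84 TPM on day 6 and 5.22 TPM on day 4 (log2 -1.30 ± 0.46, adjusted p = 0.0399). SEMA4B fell in the authors' deposited table, with 1.13 TPM on day 6 and 3.66 TPM on day 4 (log2 -1.50 ± 0.48, adjusted p = 0.0183). Both other genes of the class, SEMA4A and SEMA4G, had log2 fold changes of -0.63 and -0.66 and were not called, and are named after their values were seen. SEMA4G was called lower on the TPM scale (adjusted p = 0.0309), and not without mitochondrially encoded genes (adjusted p = 0.227). The class sum was 24.1 TPM on day 6 and 55.4 TPM on day 4, or 34 TPM on day 6 and 61.8 TPM on day 4 without mitochondrially encoded genes. T cell markers, beside SEMA4D, summed to 9.05 TPM on day 6 and 20.9 TPM on day 4 over 8 genes, of which 2 were called lower and none higher. That share was 25%, beside 14.5% of all entries. The part of T cells in the fall of SEMA4D was not tested.

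Of class 5, SEMA5A, which carries thrombospondin repeats, fell in the authors' deposited table, with 4.28 TPM on day 6 and 19.2 TPM on day 4 (log2 -1.98 ± 0.48, adjusted p = 0.00113). All 4 class 6 semaphorins were called. SEMA6A, a ligand of PLXNA2 and PLXNA4, fell in the authors' deposited table, with 1.59 TPM on day 6 and 8.07 TPM on day 4 (log2 -2.16 ± 0.49, adjusted p = 0.000337), as did SEMA6C, with 0.967 TPM on day 6 and 3.71 TPM on day 4 (log2 -1.73 ± 0.51, adjusted p = 0.00987). SEMA6B rose in the authors' deposited table, with 22.2 TPM on day 6 and 10.3 TPM on day 4 (log2 1.32 ± 0.35, adjusted p = 0.00336). SEMA6D, a ligand of PLXNA1, also rose in the authors' deposited table, with 20.5 TPM on day 6 and 13.8 TPM on day 4 (log2 0.78 ± 0.19, adjusted p = 0.00111). On day 6 SEMA6B and SEMA6D together held nearly the whole class, at 49.1% for SEMA6B and 45.3% for SEMA6D, against 28.8% and 38.4% of the summed TPM on day 4. SEMA6A held 3.5% on day 6 and 22.5% on day 4. SEMA7A, a lipid-anchored semaphorin that binds integrins and PLXNC1, was the most abundant semaphorin and was not called in the authors' deposited table, with 37.3 TPM on day 6 and 31.3 TPM on day 4 (log2 0.48 ± 0.43, adjusted p = 0.49; interval -0.37 to 1.32).

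Plexins are the signalling receptors of semaphorins, with a domain inside the cell that switches off small GTPases of the RAP family. Their 9 genes summed to 191 TPM on day 6 and 159 TPM on day 4. PLXNA2, a receptor of SEMA6A and, with neuropilins, of class 3 semaphorins, rose in the authors' deposited table, with 48.4 TPM on day 6 and 28.3 TPM on day 4 (log2 1.01 ± 0.32, adjusted p = 0.019), a call lost on the TPM scale (adjusted p = 0.0612). PLXND1, the endothelial plexin that binds SEMA3E, rose slightly in the authors' deposited table, with 39.9 TPM on day 6 and 32.5 TPM on day 4 (log2 0.53 ± 0.18, adjusted p = 0.0273), and its call too was lost on the TPM scale (adjusted p = 0.217). PLXNA3 fell in the authors' deposited table, with 4.27 TPM on day 6 and 9.05 TPM on day 4 (log2 -0.87 ± 0.20, adjusted p = 0.000395), on all scales tried. PLXNB2, the most abundant of the 68 genes, differed little in mean level in the authors' deposited table, with 65.8 TPM on day 6 and 64.9 TPM on day 4 (log2 0.24 ± 0.12, adjusted p = 0.171; interval 0.00 to 0.48). It was called higher without mitochondrially encoded genes (adjusted p = 0.0229), and not on the TPM scale (adjusted p = 0.906). PLXNA1 was not called in the authors' deposited table, with 24.2 TPM on day 6 and 14.2 TPM on day 4 (log2 0.97 ± 0.38, adjusted p = 0.0665). It was called higher without mitochondrially encoded genes (adjusted p = 0.0305), and not on the TPM scale (adjusted p = 0.152). The 6 plexins not called had log2 fold changes from -0.43 to 0.97.

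SLIT proteins are secreted matrix-binding ligands of ROBO receptors. SLIT3 fell in the authors' deposited table, with 2.84 TPM on day 6 and 15.6 TPM on day 4 (log2 -2.28 ± 0.51, adjusted p = 0.000318). SLIT2 fell in the authors' deposited table, with 7.79 TPM on day 6 and 17.1 TPM on day 4 (log2 -0.93 ± 0.33, adjusted p = 0.0384), a call lost without mitochondrially encoded genes (adjusted p = 0.0705). SLIT1 averaged under 0.1 TPM. None of the 4 ROBO receptors was called lower, beside 10.4% of all tested entries, so for so few genes this says little. ROBO2 lay near the threshold in the authors' deposited table and was called higher, with 25.3 TPM on day 6 and 18.4 TPM on day 4 (log2 0.69 ± 0.26, adjusted p = 0.0489), which was lost on the TPM scale (adjusted p = 0.185). ROBO1 was not called in the authors' deposited table, with 21.5 TPM on day 6 and 19.1 TPM on day 4 (log2 0.42 ± 0.30, adjusted p = 0.356; interval -0.16 to 1.00). ROBO4, a receptor found mainly on endothelial cells, was not called in the authors' deposited table either, with 37.1 TPM on day 6 and 33.7 TPM on day 4 (log2 0.37 ± 0.22, adjusted p = 0.259; interval -0.06 to 0.80). The SLIT sum was 10.7 TPM on day 6 and 32.7 TPM on day 4, and the ROBO sum 84 TPM on day 6 and 71.4 TPM on day 4, both in the same order without mitochondrially encoded genes. The 4 genes of this family not called had log2 fold changes from -1.04 to 0.42. The level of ROBO2 was 8.91 times that of SLIT3 on day 6 and 1.18 times on day 4, from the authors' deposited means. Against SLIT2, the more abundant SLIT, it was 3.25 times on day 6 and 1.08 times on day 4. Both pairs join genes called in opposite directions, so a shift in their ratio follows from the choice.

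**Figure D3:**
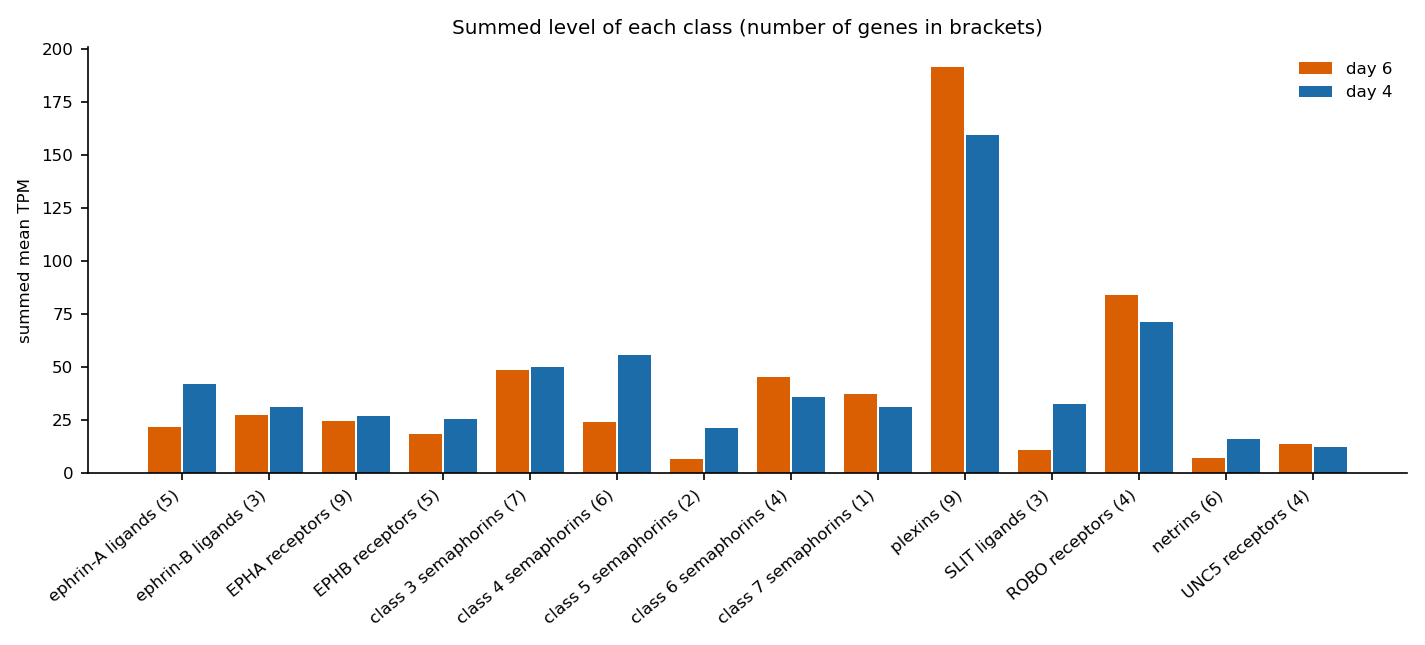
Mean TPM summed over the genes of each class, on day 6 (left bar) and day 4 (right bar), without error bars because values of single libraries are not at hand. SLIT ligands summed to 10.7 TPM on day 6 and 32.7 TPM on day 4, while ROBO receptors summed to 84 TPM on day 6 and 71.4 TPM on day 4.

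Netrins are laminin-like guidance proteins that act through DCC, neogenin and UNC5 receptors, and the netrin-G proteins are lipid-anchored relatives that bind other partners. NTNG2 fell in the authors' deposited table, with 1.02 TPM on day 6 and 6.77 TPM on day 4 (log2 -3.01 ± 0.55, adjusted p = 4.63e-06). NTN3 fell at a low level in the authors' deposited table, with 0.149 TPM on day 6 and 0.667 TPM on day 4 (log2 -1.97 ± 0.57, adjusted p = 0.00729). NTN5 rose in the authors' deposited table at a level under 1 TPM on both days, with 0.33 TPM on day 6 and 0.0845 TPM on day 4 (log2 2.22 ± 0.77, adjusted p = 0.0338). NTN4, a netrin of basement membranes and the most abundant netrin on day 6, was not called in the authors' deposited table, with 4.99 TPM on day 6 and 6.14 TPM on day 4 (log2 -0.08 ± 0.18, adjusted p = 0.826; interval -0.43 to 0.28), and its fold change took the other sign without mitochondrially encoded genes. NTNG1, named after its values were seen, had 0.0976 TPM on day 6 and 1.42 TPM on day 4 in the authors' deposited table, where its p-value is given as 1 although its score alone would give p = 7.41e-05. It is counted among the 68 members and was left out of the 67 with a test. UNC5D, a netrin receptor known for repulsion, fell to a trace in the authors' deposited table, with 0.0396 TPM on day 6 and 0.637 TPM on day 4 (log2 -3.87 ± 0.91, adjusted p = 0.000636). The 5 netrins and UNC5 receptors not called had log2 fold changes from -1.32 to 0.68. UNC5B, the UNC5 receptor of endothelium, held 70.9% of the UNC5 sum on day 6 and 71.4% on day 4, and was not called in the authors' deposited table, with 9.62 TPM on day 6 and 8.66 TPM on day 4 (log2 0.39 ± 0.28, adjusted p = 0.356; interval -0.15 to 0.93).

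Co-receptors of these pathways were counted from a list of 8 genes, of which 1 was higher and 3 lower (50%, beside 14.5% of all entries). NRP1, a neuropilin that binds SEMA3A and VEGF, rose in the authors' deposited table, with 101 TPM on day 6 and 60.1 TPM on day 4 (log2 1.02 ± 0.36, adjusted p = 0.0365), a call lost on the TPM scale. NRP2, the neuropilin that binds SEMA3F and VEGFC, fell in the authors' deposited table, with 13.4 TPM on day 6 and 53.1 TPM on day 4 (log2 -1.78 ± 0.36, adjusted p = 5.8e-05). The level of NRP1 was 7.58 times that of NRP2 on day 6 and 1.13 times on day 4. DCC, the attractive netrin receptor, fell at a low level in the authors' deposited table, with 0.096 TPM on day 6 and 0.881 TPM on day 4 (log2 -2.96 ± 0.46, adjusted p = 3.85e-08). L1CAM, an adhesion protein that pairs with NRP1 in neurons, fell to a trace in the authors' deposited table, with 0.0375 TPM on day 6 and 2.31 TPM on day 4 (log2 -5.72 ± 0.85, adjusted p = 6.77e-09). NEO1, or neogenin, was not called in the authors' deposited table, with 5.59 TPM on day 6 and 11.6 TPM on day 4 (log2 -0.84 ± 0.33, adjusted p = 0.0709). It was called lower on the TPM scale (adjusted p = 0.0119), and not without mitochondrially encoded genes (adjusted p = 0.118). On the TPM scale 0 co-receptors were higher and 5 lower, beside 299 higher and 3829 lower of all 19485 tested entries. Among 8 other ligands of the same receptors none was higher and 2 were lower (25%), or 4 lower on the TPM scale. The 2 called as deposited were ligands of neogenin. RGMA fell in the authors' deposited table, with 2.89 TPM on day 6 and 44.5 TPM on day 4 (log2 -3.76 ± 0.67, adjusted p = 2.31e-06). RGMB fell in the authors' deposited table, with 6.77 TPM on day 6 and 52.4 TPM on day 4 (log2 -2.77 ± 0.50, adjusted p = 3.44e-06).

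Of 57 signalling partners 5 were higher and 5 lower, 10 in all, with a median log2 fold change of 0.07. That share of 17.5% is near the 17% over entries of at least 1 TPM. The balance depended on the scale, as it did over all entries. It was 0 higher and 13 lower on the TPM scale, and 11 higher and 3 lower without mitochondrially encoded genes. Over all 19485 tested entries it was 299 higher and 3829 lower on the former scale, and 1848 higher and 1595 lower on the latter. TIAM1, an activator of RAC1, rose in the authors' deposited table, with 16.7 TPM on day 6 and 7.45 TPM on day 4 (log2 1.40 ± 0.47, adjusted p = 0.028). SRGAP1, a GTPase-activating protein that binds ROBO receptors, rose there as well, with 11.7 TPM on day 6 and 7.91 TPM on day 4 (log2 0.81 ± 0.24, adjusted p = 0.0122, from the authors' deposited table). The other calls of higher level were ARHGEF11 (log2 0.49), LIMK2 (log2 0.64) and SRGAP2 (log2 0.39), and none of the 5 was called on the TPM scale. RND1, a small GTPase that binds plexins, fell in the authors' deposited table, with 1.1 TPM on day 6 and 3.22 TPM on day 4 (log2 -1.33 ± 0.25, adjusted p = 8.72e-06). SRGAP3 (log2 -2.16), DPYSL4 (log2 -2.66), PLCG1 (log2 -0.88) and DPYSL2 (log2 -0.67), the last a cytoskeletal protein of the semaphorin response, fell too, although the calls of PLCG1 (adjusted p = 0.0784) and DPYSL2 (adjusted p = 0.106) were lost without mitochondrially encoded genes. Of 10 proteases that shed or process these proteins 4 were higher and 1 lower (50%, beside 14.5% of all entries). FURIN, which processes class 3 semaphorins, rose in the authors' deposited table, with 70.8 TPM on day 6 and 46.3 TPM on day 4 (log2 0.83 ± 0.25, adjusted p = 0.0098). ADAM17 (log2 0.83), BACE1 (log2 0.58) and ADAM8 (log2 0.60) rose and PSEN2 (log2 -1.03) fell. On the TPM scale 1 of these proteases was called higher and 2 lower, and without mitochondrially encoded genes 5 were higher and 1 lower.

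**Figure D4:**
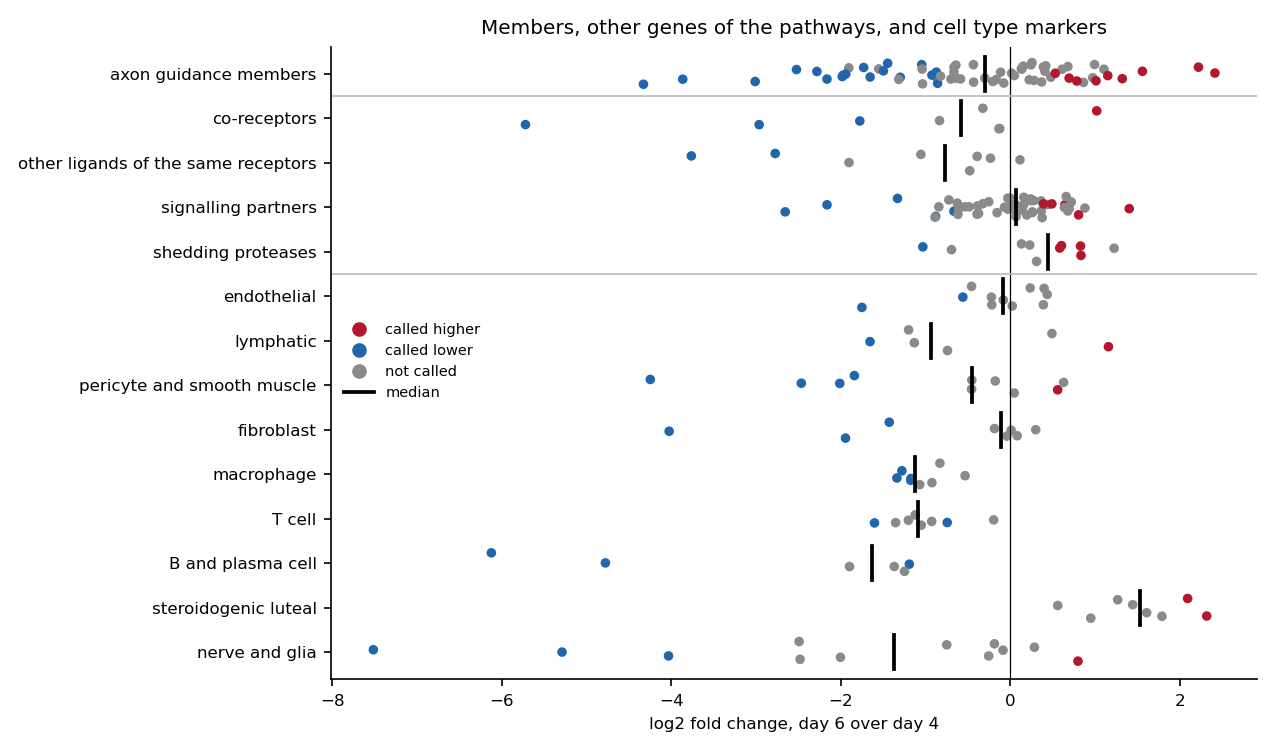
Log2 fold change, day 6 over day 4, of the members, of 4 lists of other pathway genes and of 9 lists of cell type markers, with 1 point per gene and a bar at each median. Nerve and glia markers reach -7.52 and B and plasma cell markers -6.12, below all members, while steroidogenic markers lie right of 0.

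Levels of cell type markers on both days stand beside the calls above. Counts of calls in these lists can be read beside 14.5% of all tested entries and 17% of those averaging at least 1 TPM. Nerve and glia markers had a median log2 fold change of -1.38, with 1 of 12 higher and 3 lower, and summed to 189.6 TPM on day 6 and 207 TPM on day 4, led by UCHL1, S100B and NCAM1. Without mitochondrially encoded genes the order of these sums turned round, to 268 TPM on day 6 and 231 TPM on day 4. S100B, a glial calcium-binding protein, was the one called higher in the authors' deposited table, with 54.1 TPM on day 6 and 35.9 TPM on day 4 (log2 0.80 ± 0.14, adjusted p = 1.78e-06), while UCHL1 and NCAM1 were not called. NEFL, near 0 on both days, was not called in the authors' deposited table, with 0 TPM on day 6 and 0.0183 TPM on day 4 (adjusted p = 0.709). Pericyte and smooth muscle markers had a median of -0.46, with 1 of 10 higher and 4 lower, and summed to 635 TPM on day 6 and 2304 TPM on day 4, led by ACTA2, TAGLN and RGS5. Fibroblast markers had a median of -0.11, with 3 of 8 lower and none higher, and summed to 10094 TPM on day 6 and 11971 TPM on day 4, an order that turned round without mitochondrially encoded genes (14251 TPM on day 6 and 13347 TPM on day 4). Endothelial markers had a median of -0.08, with 2 of 11 lower and none higher, a share of 18.2% that is near the 17% above. They summed to 358 TPM on day 6 and 467 TPM on day 4, led by EGFL7, EMCN and CDH5. Without mitochondrially encoded genes the endothelial sums were closer, at 505 TPM on day 6 and 521 TPM on day 4.

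Macrophage markers were lower in 4 of 8 and had a median of -1.12, summing to 40.9 TPM on day 6 and 99.3 TPM on day 4. B and plasma cell markers were lower in 3 of 6, with a median of -1.63 and sums of 3.83 TPM on day 6 and 83.3 TPM on day 4. Lymphatic markers were higher in 1 of 6 and lower in 1, with a median of -0.94 and sums of 178 TPM on day 6 and 237 TPM on day 4. Without mitochondrially encoded genes the lymphatic sums were closer, at 252 TPM on day 6 and 265 TPM on day 4. Steroidogenic markers were higher in 2 of 8 and lower in none, with a median of 1.53. The part of these cell types, and of the route of collection, in the calls of axon guidance genes was not tested.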

How the data were processed

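Messenger RNA of whole bovine luteal tissue was sequenced as stranded single reads of 100 nt from day 6 (4 libraries) and day 4 (3 libraries), per the labels. The authors deposited 1 table with 19539 entries and no values per library. FastQC, DESeq2 and the build ARS-UCD1.2 appear in the submitters' processing notes. Aligner and read counter were not given in the sources used here. Mean levels as deposited are taken as TPM because each column sums to 999999. The log2 values the authors deposited are a ratio of both means, each after adding 1, and a standard error. The score they deposited is a Wald statistic. For 19485 entries the deposited p-value follows from the score by the normal distribution (two-sided), with Benjamini-Hochberg adjustment. The remaining 54 entries were left out of tests.

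Fold changes were taken as score times standard error, because adding 1 shrinks the deposited ratio of low genes. Intervals are 95% Wald intervals. The TPM scale subtracts 0.21, the median excess over the log2 ratio of means in 10599 entries of at least 5 TPM. Leaving out 13 mitochondrially encoded genes adds 0.13 to the fold changes as reported. Calculations used pandas 2.3.3 and SciPy 1.17.1 in Python 3.11.15, and the Wald and adjustment steps were run on simulated fold changes. These were drawn from a normal distribution with the deposited standard errors, so they cannot check whether that distribution holds for so few libraries.

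All 68 member symbols matched the RefSeq annotation ARS-UCD2.0, used for names and gene order only, and none stood on more than 1 entry. Every called member is named, with the 2 most abundant members not called in each of 6 families, every called gene of the pathway lists, NEO1, and at most 3 genes of each marker list, those of highest mean TPM. A few genes, NEFL and NTNG1 among them, were named outside this rule, after their values were seen. No rule set the pairs of genes whose levels are given as a ratio. Each pair joins genes called in opposite directions, so a shift in its ratio follows from the choice. Members and lists were chosen with earlier results of these data known. Values of some single marker genes are not reported here.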

Additional observations from a re-analysis of the deposited data

How the results depend on the processing

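The number of members called higher on day 6 was 9, and it was 5 at an adjusted p under 0.01, 0 in a test against a fold of 1.5 and 0 with the t distribution at 5 degrees of freedom. The number called lower was 18, and it was 7 against a fold of 1.5 and 0 with the t distribution, which at an unadjusted p under 0.05 gave 9 higher and 19 lower. That distribution called 0 of all 19485 entries, with 3133 at an unadjusted p under 0.05. The wider tails of the t distribution and the larger null fold are built into these alternatives. Other settings kept both counts within 1.5 times, namely both TPM scales, a minimum mean of 1 TPM, and the lowest entry of a repeated symbol, and adjusted p under 0.01 did so for the lower calls. The median over members, -0.30, was negative in all settings tried for it, from -0.52 on the TPM scale to -0.10 at a mean of at least 1 TPM.

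Of 39 named members, 34 kept direction and call on the TPM scale and 33 without mitochondrially encoded genes. NTN4, not called, had a fold change of 0.048 without these genes, and SEMA3F, not called, one of -0.00704 as the deposited ratio of mean TPM + 1. Leaving out single libraries was not possible, as the table has no values per library. No paired analysis was possible because the deposited columns carry no replicate values. The depth of each library is unknown, so no detection limit is given, and members averaging under 1 TPM had a median standard error of 0.66, against 0.34 for those above.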

Other observations

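Some members lie next to each other in the order of protein-coding genes of the annotation ARS-UCD2.0, and are named here after their values were seen. SEMA3D, SEMA3A and SEMA3E follow each other with 0 coding genes between them, and SEMA3C lies 6 coding genes further on. Their log2 fold changes were 1.15, 1.10, 2.41 and 0.86, all positive, on the TPM scales too, although only SEMA3D and SEMA3E were called. SEMA3A, the classical repellent of the class, stood at 5.38 TPM on day 6 and 3.08 TPM on day 4 and SEMA3C at 10.1 TPM on day 6 and 6.62 TPM on day 4 in the authors' deposited table. SEMA3B and SEMA3F lie 3 coding genes apart and had log2 fold changes of -2.52 and 0.22, with SEMA3F not called.

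EFNA1, EFNA3 and EFNA4 also follow each other with 0 coding genes between them. Their log2 fold changes were -0.70, -1.55 and -1.65, of which EFNA4 alone was called. ROBO2 and ROBO1 are neighbours with 0 coding genes between them and had 0.69 and 0.42. ROBO3 and ROBO4 are neighbours as well, at -1.04 and 0.37, with ROBO3 at 0.0502 TPM on day 6 and 0.114 TPM on day 4 in the authors' deposited table. Whether neighbours are more alike in fold change than other members was not tested.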
